A study of Mus musculus with 2 samples.

Results

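The genes described here are the 36 mouse genes for aminoacyl-tRNA synthetases, of 20505 genes listed in the FPKM tables of both libraries. They were chosen by name, as the rows whose Ensembl identifiers carry the 36 gene symbols in the GENCODE mouse annotation M21 (genome build GRCm38), a rule that uses no measured value. All 36 were listed above 0 in both libraries. The group holds 20 genes for cytosolic enzymes and 16 genes, all with symbols ending in 2, for mitochondrial enzymes.

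The cells were primary hepatocytes of C57BL/6 mice, freed from the liver by perfusion with type II collagenase and cultured in DMEM medium with 5% FBS. They were infected overnight with an adenovirus that carried HuR in one culture and β-galactosidase (β-Gal) in the other. HuR, the protein of the Elavl1 gene, binds AU-rich and U-rich stretches of RNA, and β-Gal, a bacterial enzyme, was the control. Total RNA was sequenced in 1 HuR library and 1 β-Gal library, so no value has a replicate and no difference has a test. The labels do not say how many mice gave the cells, or whether both cultures came from the same mouse.

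Aminoacyl-tRNA synthetases join each amino acid to its own tRNA and so supply the ribosome with charged tRNAs. They fall into a pair of unrelated structural classes, I and II. Cytosolic protein synthesis and the small set of proteins made inside mitochondria are mostly served by separate nuclear genes, although Kars (lysine) and Gars (glycine) each encode both forms. In mammals several cytosolic synthetases sit in a multisynthetase complex with the scaffold proteins of Aimp1, Aimp2 and Eef1e1. Uncharged tRNAs that build up when an amino acid runs short activate the kinase GCN2, which raises translation of the transcription factor ATF4, and several synthetase genes are known ATF4 targets.

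FPKM is the number of reads of a gene scaled by the length of its transcripts and by the size of the library. The length used matched the mean over all annotated transcripts for most genes. Levels of different genes can be set side by side only as far as that length fits. Whole reads could be recovered from the FPKM steps for 24 of the 36 genes, and reads of the other 12 are estimates. The 12 are Cars, Hars, Kars, Lars, Nars, Qars, Tars, Aars2, Cars2, Fars2, Lars2 and Sars2. The implied library totals were 17671387 reads for HuR and 18357017 reads for β-Gal. A single read of a 2 kb transcript came to 0.0283 FPKM in the HuR library and 0.0272 FPKM in the β-Gal library. Fold changes are log2((HuR + 1)/(β-Gal + 1)) on FPKM, so a negative value means lower in the HuR library. A value written as a fold, such as 2-fold lower, is the ratio of FPKM without the pseudocount, and the range after it is a 95% interval from the exact Clopper-Pearson method. Those intervals cover counting error only, not the difference between cultures, infections or library preparations. The comparison took in the 12905 genes that reached 1 FPKM in the HuR library, the β-Gal library or both, 35 of them synthetase genes. Mars2, the mitochondrial methionine enzyme, was left out by that limit, at 0.917 FPKM in the HuR library and 0.989 FPKM in the β-Gal library.

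The transcripts that stood lowest in the HuR library, with log2 fold changes of at most -0.58 (1.5-fold), were those of Eprs, Lars, Rars2, Iars, Iars2, Dars, Wars2 and Nars2. HuR is known to bind AU-rich and U-rich sites in 3′ UTRs, and the pentamer ATTTA occurs in the annotated 3′ UTR of 7 of the 8, all but Eprs. Over all compared genes with an annotated coding transcript 63.3% hold it, and of those at least 1.5-fold lower 75.0% do (1998 of 2663). The ATTTA nearest the stop codon is shown here in capitals with 10 bases on each side for 6 of the 7 genes, to show the pentamer in its surroundings, and Lars is not shown. They are written 5′ to 3′ on the strand of the gene, in DNA letters, from GENCODE M21 transcripts (GRCm38). A match is a description of the sequence and does not show that HuR binds there.
Rars2 (chr4:34660132-34660156, plus strand): tcagaatagaATTTAaagtattatt
Iars (chr13:49733976-49734000, plus strand): tcatgttcacATTTAaccttaaaca
Iars2 (chr1:185286687-185286711, minus strand): ttgactcagtATTTAagctctatga
Dars (chr1:128364089-128364113, minus strand): gtacaaattaATTTAagtaaaaaac
Wars2 (chr3:99217143-99217167, plus strand): cttgtgcagtATTTActgtgcaggt
Nars2 (chr7:97063198-97063222, plus strand): cttccttgccATTTAaacttacatg
The first base of the capitals lies 72 bases after the stop codon in Rars2, 131 in Dars, 245 in Iars, 246 in Wars2, 348 in Iars2 and 495 in Nars2. The number of ATTTA matches in the whole 3′ UTR was 8 in Nars2, 5 in Iars2, 5 in Wars2, 2 in Dars, 2 in Lars and 1 each in Rars2 and Iars.

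At a limit of 2-fold, 0 of 35 synthetase transcripts were higher in the HuR library and 3 were lower. Over all compared genes the share higher at that limit was 5.35% and the share lower was 8.31%, so that 3 of 35 is near the background. At 1.5-fold the synthetase counts were 0 higher and 8 lower, beside 12.0% and 23.4% of all compared genes, and 8 of 35 is near the background too. The remaining 27 lay within 1.5-fold. With the trend on GC content and length removed 5 genes were past 1.5-fold lower, as Dars, Iars2, Wars2 and Nars2 dropped out and Vars2 came in. The share over all genes fell too, to 14.3%, so that 5 of 35 is again near the background. The median log2 fold change of the 35 genes was -0.31, where the median of all compared genes was -0.17, and 23 of the 35 lay below that general median and 12 above it. The counting interval of the ratio lay wholly below 1 for 23 of the 35, wholly above 1 for 3 (Cars, Sars and Kars) and held 1 for 9. Over 12678 compared genes with a known length the shares were 46.3% wholly below and 26.5% wholly above. Fewer cells of a type and less RNA per cell cannot be told apart in libraries of this kind.

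**Figure D1:**
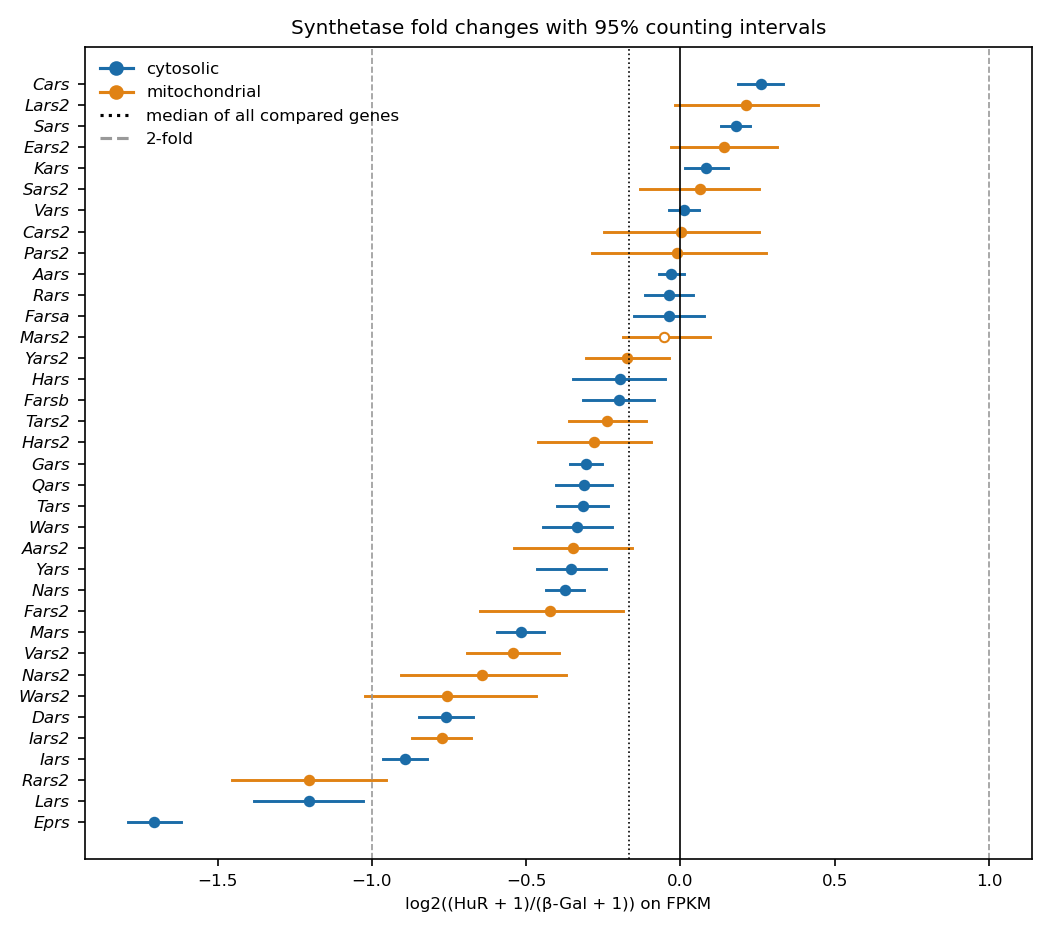
Log2 fold change of each of the 36 synthetase genes, log2((HuR + 1)/(β-Gal + 1)) on FPKM on the horizontal axis, with 95% counting intervals on the same scale as bars. Points run between -1.71 (Eprs) and 0.26 (Cars), no point is near the 2-fold line on the higher side, and the open point is Mars2, which was not compared.

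Eprs, which encodes the bifunctional enzyme that charges glutamate and proline tRNAs, had the largest difference of the group. It stood at 25.2 FPKM in the HuR library and 84.3 FPKM in the β-Gal library, 3.35-fold lower (3.15 to 3.57), with a log2 fold change of -1.71. These values rest on 1297 whole reads in the HuR library and 4514 in the β-Gal library. By level it ranked 4078 among the listed genes of the HuR library and 1490 in the β-Gal library. The gene (ENSMUSG00000026615) spans 185363044 to 185428360 of chromosome 1, plus strand, and its exons overlap no other annotated gene. The difference stayed past 2-fold with the trend on GC content and length removed, at -1.20.

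Lars, the cytosolic leucine enzyme, which has also been described as a leucine sensor in growth signalling, was the next lowest. Its level was 15.6 FPKM in the HuR library and 37.3 FPKM in the β-Gal library, 2.39-fold lower (2.10 to 2.72), from estimated reads. Lars was the lowest of the 20 cytosolic transcripts in the HuR library and the next to lowest in the β-Gal library, above Farsa alone. The gene (ENSMUSG00000024493) spans 42202298 to 42262194 of chromosome 18, minus strand.

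Rars2, the mitochondrial arginine enzyme, was the only mitochondrial gene past 2-fold once the pseudocount was added. It had 10.3 FPKM in the HuR library and 24.97 FPKM in the β-Gal library, 2.43-fold lower (2.01 to 2.94), from 157 whole reads in the HuR library and 396 in the β-Gal library. The intervals of Eprs, Lars and Rars2 all lay wholly beyond 2-fold. The gene (ENSMUSG00000028292) spans 34614957 to 34660167 of chromosome 4, plus strand, and its annotated 3′ UTR is only 97 bases long.

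Both isoleucine enzymes were lower in the HuR library by more than 1.5-fold. Iars, the cytosolic one, stood at 73.3 FPKM in the HuR library and 137 FPKM in the β-Gal library, 1.87-fold lower (1.78 to 1.97). Iars2, its mitochondrial counterpart, stood at 23.0 FPKM in the HuR library and 40.1 FPKM in the β-Gal library, 1.74-fold lower (1.63 to 1.87). Isoleucine was the one amino acid for which both enzyme genes passed 1.5-fold, but with the trend on GC content and length removed Iars2 lay at -0.32 and no longer did. Iars2 lies 33647 bases from Eprs on chromosome 1, on the opposite strand, and 2034 bases of its exons overlap those of Rab3gap2 on the other strand. The strand setting of the counting is not given in the sources used here, so reads of that overlap cannot be assigned to Iars2 or Rab3gap2.

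The remaining 3 genes past 1.5-fold charge aspartate, tryptophan and asparagine tRNAs. Dars, the cytosolic aspartate enzyme, had 53.2 FPKM in the HuR library and 90.7 FPKM in the β-Gal library, 1.71-fold lower (1.60 to 1.82). Wars2, the mitochondrial tryptophan enzyme, had 1.65 FPKM in the HuR library and 3.49 FPKM in the β-Gal library, 2.11-fold lower without the pseudocount (1.55 to 2.89), from 63 reads in the HuR library and 138 in the β-Gal library. Its log2 fold change was -0.76, since the pseudocount weighs most on low values, and its interval held 2-fold. Nars2, the mitochondrial asparagine enzyme, had 3.45 FPKM in the HuR library and 5.95 FPKM in the β-Gal library, 1.72-fold lower (1.36 to 2.20). Just inside the 1.5-fold limit were Vars2, at a log2 fold change of -0.54, and Mars, at -0.52.

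The most abundant synthetase transcripts differed little between the libraries. Vars, the cytosolic valine enzyme, led in the HuR library with 263 FPKM and had 261 FPKM in the β-Gal control. Aars (alanine) followed with 244 FPKM in the HuR library and 249 FPKM in the β-Gal library. Exosc6, an exosome subunit gene on the same strand, shares 1326 exonic bases with Aars, so part of the Aars value may belong to it. Gars, the glycine enzyme, had 234 FPKM in the HuR library and 290 FPKM, the most of any, in the β-Gal library, 1.24-fold lower (1.19 to 1.28). Sars, the cytosolic serine enzyme that also loads serine onto selenocysteine tRNA, had 233 FPKM in the HuR library and 206 FPKM in the β-Gal library, a ratio of 1.13 (1.10 to 1.17).

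Only 3 genes had ratios whose intervals lay wholly above 1, and the ratios were small. Cars, the cytosolic cysteine enzyme, had the highest log2 fold change of the group, 0.26, with 161 FPKM in the HuR library and 135 FPKM in the β-Gal library (ratio 1.20, 1.14 to 1.26). Kars, the lysine enzyme, had 119 FPKM in the HuR library and 112 FPKM in the β-Gal library (ratio 1.06, 1.01 to 1.11). Sars is the other of the 3, from whole reads, while the reads of Cars and Kars are estimates.

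**Figure D2:**
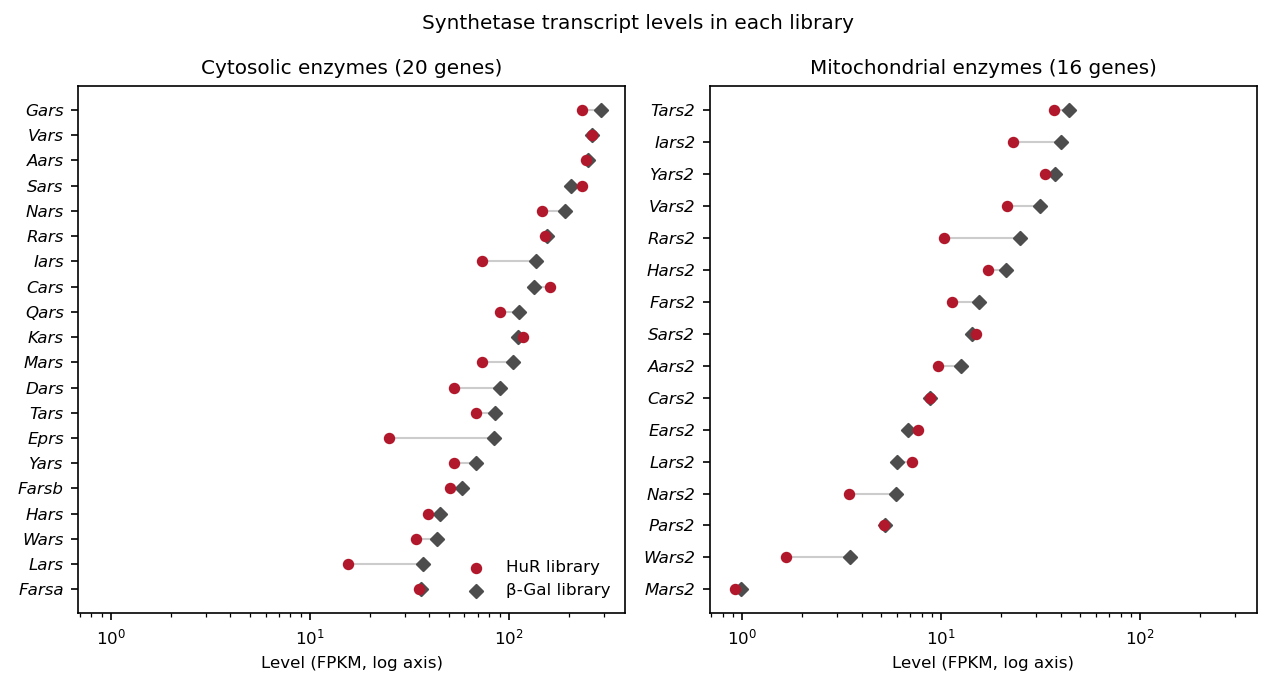
Levels of the 20 cytosolic (left) and 16 mitochondrial (right) synthetase transcripts in FPKM on a log axis, with the HuR library as circles and the β-Gal library as diamonds. Cytosolic levels lie between 15.6 and 263 FPKM in the HuR library and between 36.2 and 290 FPKM in the β-Gal library, and mitochondrial levels between 0.917 and 37.1 FPKM in the HuR library and between 0.989 and 43.9 FPKM in the β-Gal library.

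Cytosolic enzymes were more abundant than mitochondrial ones in both libraries. The 20 cytosolic transcripts had a median of 73.4 FPKM in the HuR library and 109 FPKM in the β-Gal library, and the 16 mitochondrial transcripts had a median of 9.98 FPKM in the HuR library and 13.4 FPKM in the β-Gal library. Summed, cytosolic transcripts came to 10.2 times the mitochondrial ones in the HuR library and 9.00 times in the β-Gal library. The highest mitochondrial transcript was Tars2 (threonine), at 37.1 FPKM in the HuR library and 43.9 FPKM in the β-Gal library. It was exceeded by 16 of 20 cytosolic transcripts in the HuR library and by 17 of 20 in the β-Gal library.

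The fold changes of cytosolic and mitochondrial enzymes did not separate. The median log2 fold change was -0.31 for the 20 cytosolic genes and -0.28 for the 15 compared mitochondrial genes, a difference of -0.03. That difference was 0.10, with the sign turned, when the trend on GC content and length was removed. At 2-fold, 2 of 20 cytosolic and 1 of 15 mitochondrial genes were lower, and at 1.5-fold 4 of 20 and 4 of 15, with 0 higher in both sets at either limit. Removing Kars and Gars, which serve both compartments, left the cytosolic median at -0.31.

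Each of 17 pairs of a cytosolic and a mitochondrial gene for the same amino acid had the cytosolic gene at the higher level in both libraries. The ratio of levels within a pair reached from 1.61 (Yars over Yars2 in the HuR library) to 107 (Mars over Mars2 in the β-Gal library). The 107 rests in large part on length, since the mean annotated transcript has 1771 bases for Mars and 11294 for Mars2. Their β-Gal reads were 3436 and 205. Farsa and Farsb, the subunits of the cytosolic phenylalanine enzyme, were each paired with Fars2, and Eprs with both Ears2 (glutamate) and Pars2 (proline). Counting intervals of both ratios stood apart in 10 of the 17 pairs. How often that holds for pairs of other genes was not determined, and Eprs and Fars2 are used more than once. In 4 of those the cytosolic ratio was the lower one (Lars, Mars and both pairs of Eprs), and in 6 it was the higher one (Aars, Nars, Rars, Vars, Wars and Farsa).

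Glutamate and proline gave the pairs that differed most. Ears2 stood at 7.61 FPKM in the HuR library and 6.82 FPKM in the β-Gal library, and Pars2 at 5.18 FPKM in the HuR library and 5.22 FPKM in the β-Gal library. Neither differed beyond its counting interval, and the difference in log2 fold change was -1.85 for Eprs minus Ears2 and -1.69 for Eprs minus Pars2. Accordingly, Eprs had 3.31 times the level of Ears2 in the HuR library and 12.4 times in the β-Gal library.

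Leucine and arginine pairs differed in opposite directions. Lars2, the mitochondrial leucine enzyme, had 7.14 FPKM in the HuR library and 6.02 FPKM in the β-Gal library, a ratio of 1.19 (0.985 to 1.42), while Lars was 2.39-fold lower. Rars, the cytosolic arginine enzyme, had 152 FPKM in the HuR library and 156 FPKM in the β-Gal library, a ratio of 0.975 (0.923 to 1.03), while Rars2 was 2.43-fold lower. The cytosolic minus mitochondrial difference in log2 fold change was -1.42 for leucine and 1.17 for arginine.

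Other pairs differed less. Vars2, the mitochondrial valine enzyme, had 21.3 FPKM in the HuR library and 31.5 FPKM in the β-Gal library, 1.48-fold lower (1.33 to 1.65), beside a ratio of 1.01 (0.974 to 1.04) for Vars. Mars, the cytosolic methionine enzyme, had 73.5 FPKM in the HuR library and 106 FPKM in the β-Gal library, 1.44-fold lower (1.36 to 1.52), beside the low and uncertain Mars2. Its exons share 68 bases with those of Ddit3 on the other strand. Aars2, the mitochondrial alanine enzyme, had 9.67 FPKM in the HuR library and 12.6 FPKM in the β-Gal library, 1.30-fold lower (1.13 to 1.51).

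Nars, the cytosolic asparagine enzyme, had 148 FPKM in the HuR library and 191 FPKM in the β-Gal library, 1.30-fold lower (1.24 to 1.35). Wars, the cytosolic tryptophan enzyme, known as an interferon-induced gene, had 34.4 FPKM in the HuR library and 43.6 FPKM in the β-Gal library, 1.27-fold lower (1.17 to 1.37). Both had mitochondrial partners, Nars2 and Wars2, that stood further below their β-Gal values. Among the phenylalanine genes, Fars2 had 11.3 FPKM in the HuR library and 15.4 FPKM in the β-Gal library, 1.37-fold lower (1.15 to 1.63). The cytosolic subunits Farsa and Farsb differed less, with log2 fold changes of -0.04 and -0.20.

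Serine, cysteine, histidine, threonine and tyrosine pairs had intervals that overlapped, as did isoleucine and the pair of Farsb with Fars2. Sars2 and Cars2 had ratios of 1.05 (0.907 to 1.21) and 1.00 (0.824 to 1.22), both with intervals that held 1. Hars, at 39.2 FPKM in the HuR library and 45.0 FPKM in the β-Gal library, and Hars2, at 17.2 FPKM in the HuR library and 21.1 FPKM in the β-Gal library, are head to head on chromosome 18 with 195 overlapping exonic bases. Tars and Tars2 had log2 fold changes of -0.32 and -0.24. Yars stood at 53.3 FPKM in the HuR library and 68.3 FPKM in the β-Gal library, and Yars2 at 33.1 FPKM in the HuR library and 37.4 FPKM in the β-Gal library.

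**Figure D3:**
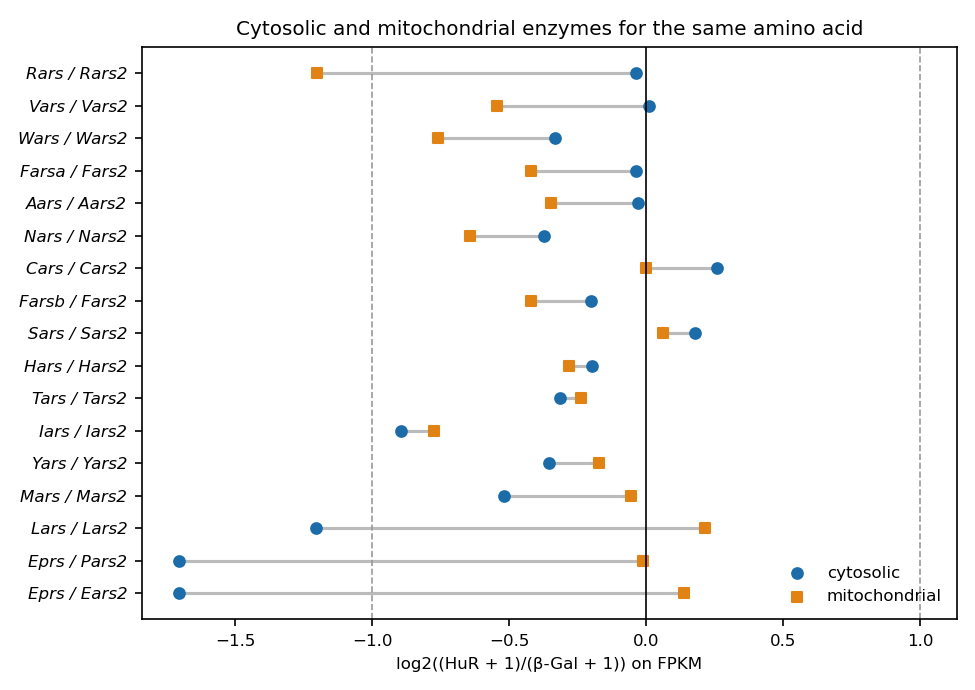
Log2 fold changes of the cytosolic (circles) and mitochondrial (squares) gene of each of 17 same-amino-acid pairs, with a line joining each pair and dashed lines at 2-fold. The pairs are ordered by their difference, from 1.17 for Rars and Rars2 at the top to -1.85 for Eprs and Ears2 at the bottom.

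Aspartate has no mitochondrial partner among the 36 genes. Qars, the cytosolic glutamine enzyme, has none either, because mitochondria make glutaminyl-tRNA from glutamyl-tRNA through the GatCAB amidotransferase, encoded by Gatb, Gatc and Qrsl1. Qars had 90.9 FPKM in the HuR library and 113 FPKM in the β-Gal library, 1.25-fold lower (1.17 to 1.33). Gatc had 9.89 FPKM in the HuR library and 15.7 FPKM in the β-Gal library, 1.59-fold lower (1.38 to 1.83), whereas Gatb and Qrsl1 had log2 fold changes of 0.10 and 0.04. With Mtfmt, which formylates the initiator methionyl-tRNA of mitochondria (log2 fold change -0.41), these 4 genes had a median of -0.18, and 0 passed 2-fold.

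The 8 cytosolic enzymes of the multisynthetase complex had a lower median than the other 12, in a grouping added after the values were seen. Their median log2 fold change was -0.64, against -0.20 for the 12 enzymes outside the complex. In the complex, 2 of 8 (Eprs and Lars) were at least 2-fold lower and 4 of 8 (with Iars and Dars) at least 1.5-fold lower, beside 8.31% and 23.4% of all compared genes. Dars lost its 1.5-fold call with the trend on GC content and length removed, at -0.36. Outside it, 0 of 12 passed 1.5-fold, and their log2 fold changes ran from -0.37 to 0.26. The complex enzymes were not uniform, since Kars and Rars lay at 0.08 and -0.04 and Qars at -0.31.

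The 3 scaffold transcripts of the complex did not share the lower values of Eprs and Lars. Aimp2 had 51.6 FPKM in the HuR library and 40.3 FPKM in the β-Gal library (ratio 1.28, 1.15 to 1.42), and Aimp1 had 106 FPKM in the HuR library and 95.7 FPKM in the β-Gal library (ratio 1.11, 1.04 to 1.18). Eef1e1 had 31.4 FPKM in the HuR library and 34.6 FPKM in the β-Gal library (ratio 0.909, 0.821 to 1.00).

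Sequence features moved with membership of the complex. The annotated transcripts of the 8 enzymes had a median GC content of 47.7% and a median coding length of 2527.5 bases, against 52.9% and 1729.5 bases for the other 12. With the trend on GC content and length removed, the medians were -0.39 for the complex and -0.07 for the others. The part of GC content and length in the difference was otherwise not tested. By structural class the medians were closer, at -0.33 for the 17 compared class I genes and -0.24 for the 17 class II genes, Eprs holding a domain of each and counted in neither.

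**Figure D4:**
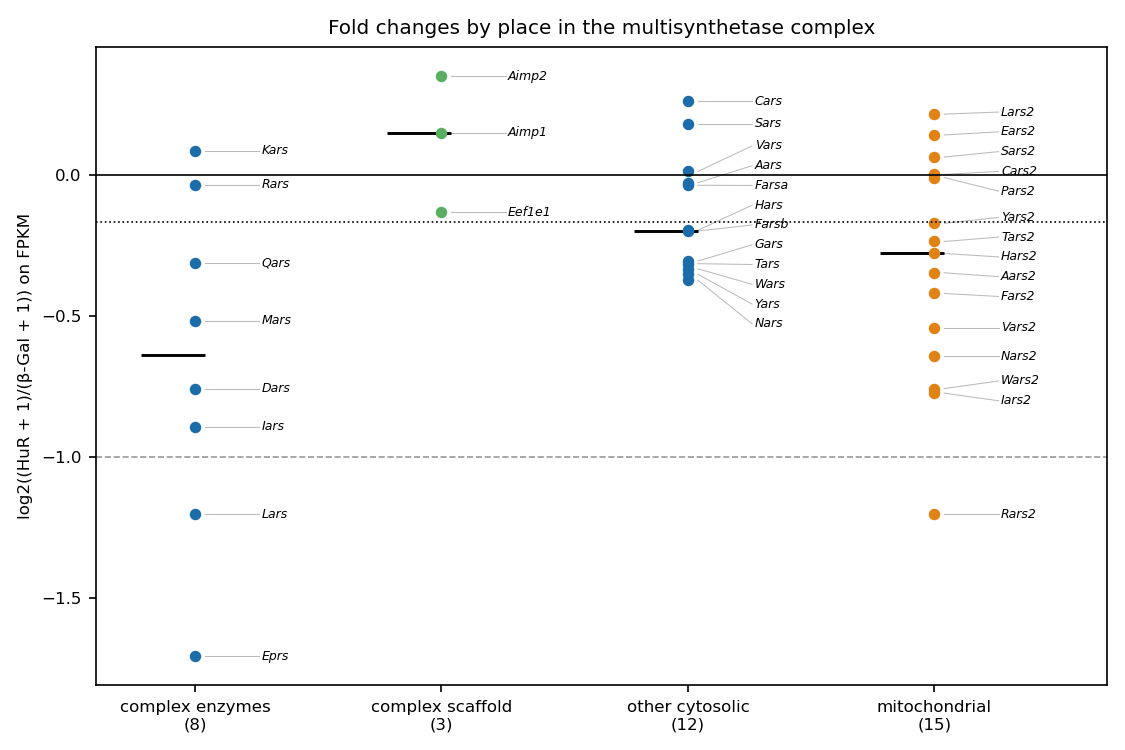
Log2 fold changes by place in the multisynthetase complex, with each gene as a point, the group median as a thick bar, a dotted line at the median of all compared genes (-0.17) and a dashed line at 2-fold lower. The 8 complex enzymes spread from -1.71 to 0.08, while the 12 other cytosolic enzymes stay between -0.37 and 0.26.

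The lower genes had transcripts of low GC content. The 8 genes at least 1.5-fold lower had GC contents from 41.2 to 48.3%. Split at 50.6%, the median of the 11104 compared genes with an annotated coding transcript, the 15 synthetase genes below it had a median log2 fold change of -0.64 and the 20 others a median of -0.03. The same split of all 11104 genes gave medians of -0.37 and -0.01. At least 1.5-fold lower were 33.2% of all genes below the split and 14.7% of those above it. Across the 35 synthetase genes the Spearman correlation of log2 fold change with GC content was 0.49, and across all 11104 genes it was 0.34. The correlation with transcript length was -0.36 and -0.37 over the same sets. These correlations describe genes that share the same 2 libraries and are not independent replicates.

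ATTTA in the 3′ UTR followed the same split. The 14 synthetase genes with at least 1 ATTTA had a median log2 fold change of -0.59, and the 21 genes with none had a median of -0.17. Across all genes the medians were -0.28 with and -0.03 without. By compartment they were -0.33 with and -0.20 without in cytosolic genes (8 and 12 genes), and -0.70 with and -0.01 without in mitochondrial genes (6 and 9 genes). With the trend on GC content and length removed the cytosolic medians were -0.19 and -0.15, and the mitochondrial medians -0.42 and -0.06. The pentamer occurs in 40.0% of the compared synthetase genes and in 63.3% of all genes, and the median 3′ UTR length is 278 bases in the synthetase genes and 883.5 bases in all genes. The genes at least 1.5-fold lower were 7 of 14 with the pentamer and 1 of 21 without, beside 1998 of 7029 and 665 of 4075 over all genes. A run of 7 T, a U-rich stretch, occurs in the 3′ UTR of 25.7% of the compared synthetase genes and 39.0% of all genes. The synthetase medians were -0.64 with that run and -0.26 without, and those of all genes -0.33 and -0.10. With the trend on GC content and length removed the synthetase medians were -0.36 and -0.10.

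Length and base composition move with the pentamer, since the 3′ UTR had a median of 994.5 bases in the 14 genes and 218 bases in the 21. The trend on GC content and transcript length does not include 3′ UTR length. After its removal the medians were -0.31 with ATTTA and -0.06 without in the synthetase genes. Across all genes they were -0.02 with and 0.01 without. Exceptions went both ways. Tars has 9 ATTTA in its 3′ UTR and a log2 fold change of -0.32, Aars has 2 and lay at -0.03, and Eprs has none. Whether HuR binds any of these transcripts was not measured.

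**Figure D5:**
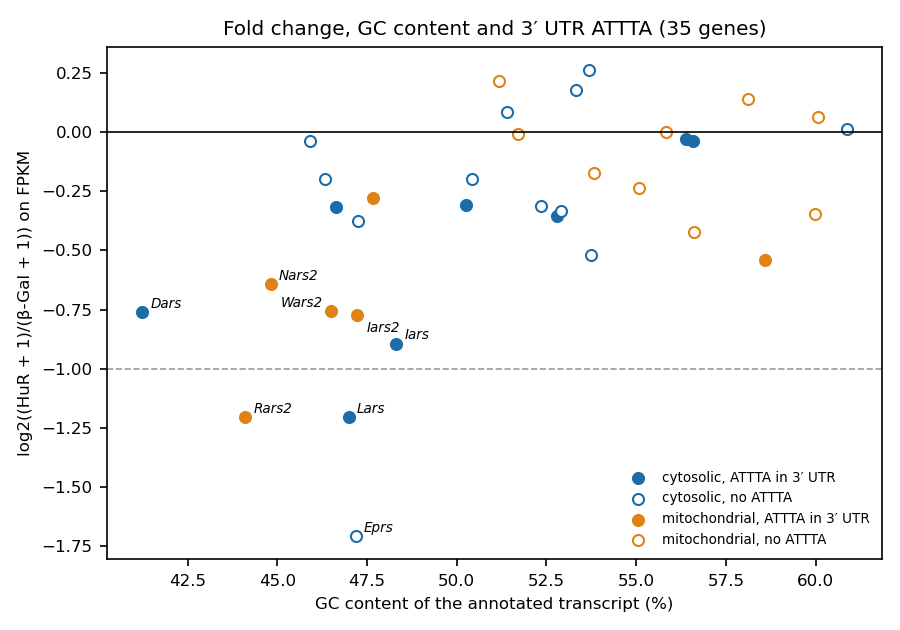
Log2 fold change against GC content (%) of the annotated transcript for the 35 compared synthetase genes, with filled points for genes whose 3′ UTR holds ATTTA. The 8 named genes, all at least 1.5-fold lower, lie between 41.2 and 48.3% GC, and Eprs alone among them is an open point.

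A promoter sequence was matched for 27 of the 36 genes, covering 250 bases before to 50 after the RefSeq start site (GRCm38.p6). Cars, Hars, Lars, Nars, Rars, Vars, Wars, Hars2 and Pars2 had no entry. The motif TGATGNAA, the core of the element through which ATF4 with a C/EBP partner acts in the amino acid response, was sought on both strands. It occurs in 5 of 27 (18.5%), against 4.51% of 27025 genes with a promoter. All 5 are among the 13 cytosolic genes, and 0 of the 14 mitochondrial genes hold it. The matches are shown in capitals with 25 bases on each side. A match describes the sequence and does not show that ATF4 acts there.
Aars, upstream match (chr8:111033705-111033762, minus strand): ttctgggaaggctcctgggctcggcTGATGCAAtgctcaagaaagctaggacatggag
Aars, downstream match (chr8:111033826-111033883, minus strand): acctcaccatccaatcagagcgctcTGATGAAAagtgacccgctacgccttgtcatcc
Gars (chr6:55037946-55038003, minus strand): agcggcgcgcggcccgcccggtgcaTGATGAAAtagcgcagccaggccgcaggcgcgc
Iars (chr13:49682112-49682169, minus strand): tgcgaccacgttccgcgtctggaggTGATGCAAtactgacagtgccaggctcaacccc
Tars (chr15:11399641-11399698, plus strand): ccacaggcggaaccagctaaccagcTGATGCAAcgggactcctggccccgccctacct
Yars (chr4:129189881-129189938, plus strand): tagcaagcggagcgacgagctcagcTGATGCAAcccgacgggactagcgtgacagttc
The genes with the motif did not move as one. Their log2 fold changes were -0.03 (Aars), -0.31 (Gars), -0.32 (Tars), -0.35 (Yars) and -0.89 (Iars), all below 0 and 4 of 5 below the general median. Of all 35 compared synthetase genes, 23 lay below that median.

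Of the 11 genes in the list for uncharged tRNA sensing and the steps after it, 10 lay within 1.5-fold. At 2-fold, 0 of the 11 compared genes were higher and 1 was lower, beside 5.35% and 8.31% of all compared genes. The median log2 fold change was -0.05. The exception was Eif2s1, the phosphorylated subunit of the initiation factor eIF2, with 17.97 FPKM in the HuR library and 44.5 FPKM in the β-Gal library, 2.48-fold lower (2.25 to 2.73). Eif2ak4, which encodes GCN2, had 5.50 FPKM in the HuR library and 5.58 FPKM in the β-Gal library.

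The 29 compared genes of the ATF4 amino acid response, which include no synthetase, had a median of -0.29. Past 2-fold were 1 higher and 5 lower genes, beside 5.35% and 8.31% of all compared genes. At 1.5-fold 5 were higher and 9 lower, beside 12.0% and 23.4% of all compared genes. Atf4 itself had 177 FPKM in the HuR library and 155 FPKM in the β-Gal library (ratio 1.14, 1.09 to 1.19). The asparagine synthetase gene Asns, an amino acid response target that makes asparagine and charges no tRNA, had 75.1 FPKM in the HuR library and 88.8 FPKM in the β-Gal library. Chac1, Cth and Aldh18a1 were the lowest, 3.18-fold (2.79 to 3.64), 2.87-fold (2.57 to 3.21) and 2.88-fold (2.56 to 3.25) lower. The serine synthesis gene Psat1 and the receptor gene Vldlr made up the 5, named after their values were seen, and Ppp1r15a, at 84.1 FPKM in the HuR library and 20.8 FPKM in the β-Gal library, was the higher one. The motif TGATGNAA occurs in 9 of the 28 list genes with a promoter (32.1%).

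The label of the HuR library was borne out by Elavl1, at 4480 FPKM there and 9.67 FPKM in the β-Gal library, although viral and chromosomal transcripts are not separated. The 9 hepatocyte markers had a median of 379 FPKM in the HuR library and 338 FPKM in the β-Gal library. Ttr had 1177 FPKM in the HuR library and 817 FPKM in the β-Gal library. Cps1, the lowest of the 9 at 3.17 FPKM in the HuR library and 8.41 FPKM in the β-Gal library, alone was at least 2-fold lower. Markers of other liver cells differed. Shares of 5.35% higher and 8.31% lower over all compared genes stand beside all counts at 2-fold in these marker lists. Of the compared Kupffer cell markers, 4 of 6 were at least 2-fold higher, and the full list of 10 summed to 132 FPKM in the HuR library and 57.7 FPKM in the β-Gal library. Cd68 alone gave 90.4 FPKM of that sum in the HuR library and 40.0 FPKM in the β-Gal library. Not past 2-fold were C1qa, at a log2 fold change of 0.90, and Clec4f, at 0.25 with an interval that held 1. Adgre1, Vsig4, Csf1r and Timd4, under 1 FPKM in both libraries, also had intervals that held 1. No stellate cell marker exceeded 0.438 FPKM in the HuR library. The 5 compared ones passed the 1 FPKM limit through the β-Gal library alone, so that limit fixed their lower direction in advance. The full list of 8 summed to 1.58 FPKM in the HuR library and 12.5 FPKM in the β-Gal library, with Lrat and Pdgfrb at 0 in the HuR library. Endothelial markers (8 genes) summed to 43.3 FPKM in the HuR library and 26.4 FPKM in the β-Gal library, with 2 of 7 higher past 2-fold (Eng and Stab1). Without Eng and Stab1 the sums were 11.2 FPKM in the HuR library and 12.7 FPKM in the β-Gal library, and Flt4, named after its value was seen, was 2.51-fold lower (2.05 to 3.09). Cholangiocyte markers (6 genes) summed to 84.2 FPKM in the HuR library and 70.0 FPKM in the β-Gal library, with 1 higher (Krt7) and 2 lower (Cldn7 and Epcam). Each of these passed the 1 FPKM limit only through the library where it was higher, so its direction was fixed by that limit. In the HuR library Cldn7 had 0.137 FPKM and Epcam 0.194 FPKM, and Krt7 had 0.199 FPKM in the β-Gal library. Without Spp1 the sums were 12.3 FPKM in the HuR library and 19.2 FPKM in the β-Gal library. The part of these cells in the synthetase values was not tested.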

How the data were processed

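The values used are FPKM per gene, deposited as 1 table for each library. The submitters' processing notes list TopHat2, HTSeq 0.6.1 and GRCm38 with no role or order. How FPKM was calculated, the annotation release, the strand setting and any filter are not given in the labels or tables. Both tables list the same 20505 genes, 0 of them at 0 in the β-Gal table and 2233 at 0 in the HuR table, so a gene with no β-Gal value is not analysed here.

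Identifiers were matched to GENCODE M21 (20133 matched, 272 placeholder names). Library totals were taken as the smallest at which FPKM times the rounded mean transcript length gave whole reads, within 0.02 of a read, in 14753 genes (73.3%). Recovered reads served for counting intervals only. The 95% interval is that of the exact Clopper-Pearson method on the HuR share of the reads of a gene in both libraries, turned into a ratio per library total. Log2 fold changes used a pseudocount of 1 FPKM, which understates changes of low genes, and genes under 1 FPKM in both libraries were left out. The call was 2-fold, with 1.5-fold as a lesser limit. With 1 library per group no test was made. GC content, coding length and 3′ UTR motifs came from the transcript with the longest complete coding sequence per gene. The trend that was removed was instead fitted on the mean GC content and mean length of all annotated transcripts of a gene. Length of the 3′ UTR was not part of that trend. The steps were tested on simulated data.

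All 36 synthetase genes were eligible to be named. From each other list the rule took up to 4 genes with the largest change among those with at least 5 FPKM in a library, Elavl1 was the check of the labels, and Eif2ak4, Atf4 and Asns were added as members of the pathway after their values were seen. A gene of the tRNA modification list and a 3′ UTR sequence are not reported here. Members and lists were chosen with earlier results of these data known. The alternatives tried were pseudocounts of 0.1 and 5 FPKM, no filter or a filter of 5 FPKM, centring on the median, removal of the trend on GC content and length, and leaving out Kars and Gars or overlapping genes. Python 3.11.15, pandas 2.3.3, numpy 2.4.6, SciPy 1.17.1 and matplotlib 3.10.9 were used.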

Additional observations from a re-analysis of the deposited data

How the results depend on the processing

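No paired analysis was possible because each group is 1 library. Of the values set against alternatives, no called direction turned. The synthetase genes at least 2-fold lower numbered 3 in most settings, 4 at a pseudocount of 0.1 FPKM (Wars2 added), 2 at 5 FPKM (Rars2 lost) and 8 at the 1.5-fold limit, while 0 of the 35 were higher in any. Mars2, under the limit for comparison, reached 1.22 with the trend on GC content and length removed. At 1.5-fold the genes lower numbered 6 at a pseudocount of 5 FPKM (without Wars2 and Nars2), 7 on centring (without Nars2) and 5 with the trend removed (without Dars, Iars2, Wars2 and Nars2, with Vars2). The shares of all compared genes that were 1.5-fold lower in those settings were 11.5%, 15.8% and 14.3%, in that order. At 2-fold the shares lower were 13.7% at a pseudocount of 0.1 FPKM and 2.56% at 5 FPKM. They were 5.11% on centring and 4.06% with the trend removed, beside 8.31% as reported. Eprs, Lars and Rars2 remained past 2-fold on centring (the general median set to 0) and with the trend on GC content and length removed. Centring moved the cytosolic median to -0.14, the complex median to -0.47 and the median of the other cytosolic enzymes to -0.032. Removing the trend moved the cytosolic median to -0.15 and the complex median to -0.39, and turned the cytosolic minus mitochondrial difference to 0.10. The complex median was -0.76 without Kars and Gars and also without genes whose exons overlap another gene, alternatives that, like the grouping by complex itself, were added after the data were seen. The sign of single log2 fold changes turned in 5 of 36 genes on centring and in 9 with the trend removed. Higher genes were 39.2% of all 2-fold calls as deposited, 59.3% with the median set to 0 (960 higher, 660 lower) and 59.4% with the trend removed (753 higher, 515 lower). Depth limits Wars2, Nars2, Pars2, Rars2 and Mars2, each under 200 reads in the HuR library.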

Other observations

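Other steps of tRNA supply were read from lists that hold no synthetase. Their counts past 2-fold stand beside shares of 5.35% higher and 8.31% lower over all compared genes. Selenocysteine genes, which turn seryl-tRNA into selenocysteyl-tRNA and read it into protein, had a median log2 fold change of -0.50 over 6 genes, with 1 at least 2-fold lower. That gene was Sephs2, which makes the selenium donor, at 25.3 FPKM in the HuR library and 56.6 FPKM in the β-Gal library, 2.23-fold lower (2.07 to 2.41). Pstk, the kinase of seryl-tRNA, was 1.52-fold lower (1.33 to 1.73) and Secisbp2, which binds the selenocysteine insertion element, 1.46-fold lower (1.30 to 1.63). The 3 compared genes for removing wrongly charged amino acids had a median of -0.52, with 0 past 2-fold, and Prorsd1 and Dtd1 lay at -0.54 and -0.52. With the trend on GC content and length removed that median was -0.12, and the median of the selenocysteine genes was -0.37.

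Genes of tRNA modification had a median of -0.17 over 28 genes. Past 2-fold were 1 higher and 2 lower genes, near the shares of all compared genes (5.35% and 8.31%). Mto1, which modifies mitochondrial tRNAs and was among the lower genes, was 2.40-fold lower (1.96 to 2.97). Ctu1, which thiolates the wobble uridine, had 16.5 FPKM in the HuR library and 7.15 FPKM in the β-Gal library, a ratio of 2.30 (2.02 to 2.63).

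The list for RNA polymerase III, which transcribes tRNA genes, and factors that work with it had 23 genes compared. Past 2-fold were 0 higher and 1 lower (Bdp1, 2.38-fold, 2.06 to 2.75). The median was -0.35, and -0.14 with the trend on GC content and length removed. Among the TFIIIC subunit genes of that list, Gtf3c1 was the highest, at 101 FPKM in the HuR library and 54.3 FPKM in the β-Gal library. Gtf3c2 was the lowest, at 6.01 FPKM in the HuR library and 12.7 FPKM in the β-Gal library. Between them Gtf3c3, Gtf3c4, Gtf3c5 and Gtf3c6 had log2 fold changes from -0.41 to 0.33. Genes of tRNA processing and export had 0 of 22 past 2-fold and a median of -0.10. Xpot, the tRNA export receptor, was the lowest, at 21.9 FPKM in the HuR library and 43.7 FPKM in the β-Gal library, and Tsen54, a subunit of the tRNA splicing endonuclease, the highest of those named, at 37.6 FPKM in the HuR library and 23.6 FPKM in the β-Gal library. Mitochondrial translation factors had 0 of 10 past 2-fold and a median of -0.18, with Mtif2 at -0.71 and Tsfm at 0.53.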
